A study of Mus musculus with 9 samples.

Results

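A set of 10 genes of epithelial oxidant and antioxidant chemistry was followed through bulk RNA-seq of mouse intestinal organoids. They are the oxidases *Nox1* and *Duox2*, the DUOX2 maturation factor *Duoxa2*, the inducible nitric oxide synthase *Nos2*, and the antioxidant genes *Gpx2*, *Gpx1*, *Hmox1*, *Gclc*, *Txnrd1* and *Srxn1*. *Nox1*, *Duox2*, *Duoxa2* and *Nos2* are grouped below as oxidant-producing genes, although the maturation factor itself makes no oxidant. The 10 genes were given as a list of names, chosen with earlier results of these data known. Matched by symbol to the Ensembl mouse identifiers of the deposited tables, these are 10 of 54838 identifiers. All 10 passed the filter on low values that left 12702 genes for testing. *Nox1* reached the 1 FPKM of that filter only in the libraries labelled 4-OHT DMSO. *Nos2* reached it in those labelled 4-OHT and otherwise only in EtOH DMSO replicate 2 (1.95 FPKM). Both thus entered the test only through libraries in which they were high. The organoids were grown from small intestinal crypts of mice with the genotype *Vil-CreERT2*;*Mettl3* fl/fl. The villin promoter drives a tamoxifen-inducible Cre recombinase in their epithelial cells, and the samples carry the strain label C57BL/6. Every group carried the transgene and the floxed alleles of *Mettl3*, the catalytic subunit of the m6A RNA methyltransferase. EtOH (vehicle) or 500 nM 4-OHT, which activates the recombinase, was given for 2 days. DMSO or Nec-1, an inhibitor of the kinase RIPK1, was given for 5 days per a legend of the study. The Nec-1 concentration is 5 µM in that legend and 10 µM in the methods. The 7 RNA-seq libraries fall into EtOH DMSO (n = 2), EtOH Nec-1 (n = 2), 4-OHT DMSO (n = 2) and 4-OHT Nec-1 (n = 1), and the 2 Atf3 chromatin samples of the series were not analysed here. No group received 4-OHT without a floxed allele or without Cre, so effects of 4-OHT itself and of recombination cannot be told apart. The culture medium of all groups contained N-acetylcysteine, a thiol antioxidant and cysteine source. Nothing in the labels says whether replicates came from separate mice or cultures, so p-values measure only the spread between these samples, which may be technical.

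NOX1 and DUOX2 are membrane NADPH oxidases of the gut epithelium: NOX1 makes superoxide together with the small membrane subunit CYBA, the organizer NOXO1, the activator NOXA1 and RAC1, whereas DUOX2 releases hydrogen peroxide at the apical surface and needs DUOXA2 to leave the endoplasmic reticulum. NOS2 makes nitric oxide from arginine. On the other side, the glutathione peroxidases GPX1 and GPX2 are selenoproteins that reduce peroxides with glutathione, GCLC catalyses the rate-limiting step of glutathione synthesis, TXNRD1 (also a selenoprotein) recycles thioredoxin, SRXN1 repairs overoxidized peroxiredoxins and HMOX1 breaks down heme, and several of these genes are targets of the oxidant-responsive factor NRF2.

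Levels are given as FPKM, fragments scaled to transcript length and to the mapped total of the library, which the authors deposited and which can be compared between genes. Differences are on the log2(FPKM + 1) scale, on which a value of 1 is a doubling for well expressed genes and the change of genes near or under 1 FPKM is understated. Groups of 2 libraries were compared with limma, with Benjamini-Hochberg adjusted p-values over all 12702 genes and a threshold of 0.05. *Mettl3* had 2.70 and 2.71 FPKM in EtOH DMSO, 2.41 and 2.47 under EtOH Nec-1, 3.72 and 4.14 in the libraries labelled 4-OHT DMSO and 3.36 in the library labelled 4-OHT Nec-1. It was thus not lower in the libraries labelled 4-OHT (limma difference 0.41, adjusted p = 0.023, and 0.25 with adjusted p = 0.0796 after median centring), and because a value over the whole gene does not resolve the floxed part, every direction below rests on the labels. Replicates correlated across the genes tested with Pearson's r of 0.965 to 0.989, lowest for 4-OHT DMSO. Relative depth, read from the spacing of the lowest values, ranged from 0.853 to 1.03 (first EtOH DMSO library taken as 1), while the number of fragments behind single values is unknown.

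The tissue label was met by the data. All 7 epithelial markers, *Epcam*, *Cdh1* and *Vil1* among them, passed the filter, with a summed level of 3288 to 4815 FPKM per library. Of 9 myeloid markers, 6 stayed under 0.3 FPKM in every library, including *Ptprc*, *Cybb*, *Adgre1*, *Csf1r* and *Tyrobp*. The 4 endothelial, the 5 lymphocyte and 5 of 6 fibroblast markers also stayed under 0.3 FPKM in each library. In bulk samples, fewer cells of a type and less RNA per cell cannot be told apart.

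In EtOH DMSO the mRNA level of every antioxidant gene lay above that of every oxidant-producing gene. *Gpx1* led at 281 and 285 FPKM, followed by *Gclc* at 104 and 116 FPKM. *Srxn1*, *Txnrd1* and *Gpx2* came next with ranges that overlapped from one to the next, between 28.9 and 69.7 FPKM. *Hmox1* lay below them at 13.9 and 15.7 FPKM. Among the oxidant-producing genes, *Duoxa2* (5.83 and 7.49 FPKM) and *Duox2* (4.12 and 6.49 FPKM) overlapped, *Nos2* lay at 0.936 and 1.95 FPKM, and *Nox1* came last with 0.0389 and 0.0643 FPKM. *Duoxa2* overlapped with *Gpx2* just below *Gpx1* and above *Srxn1*, *Gclc* and *Txnrd1* in the libraries labelled 4-OHT DMSO.

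**Figure D1:**
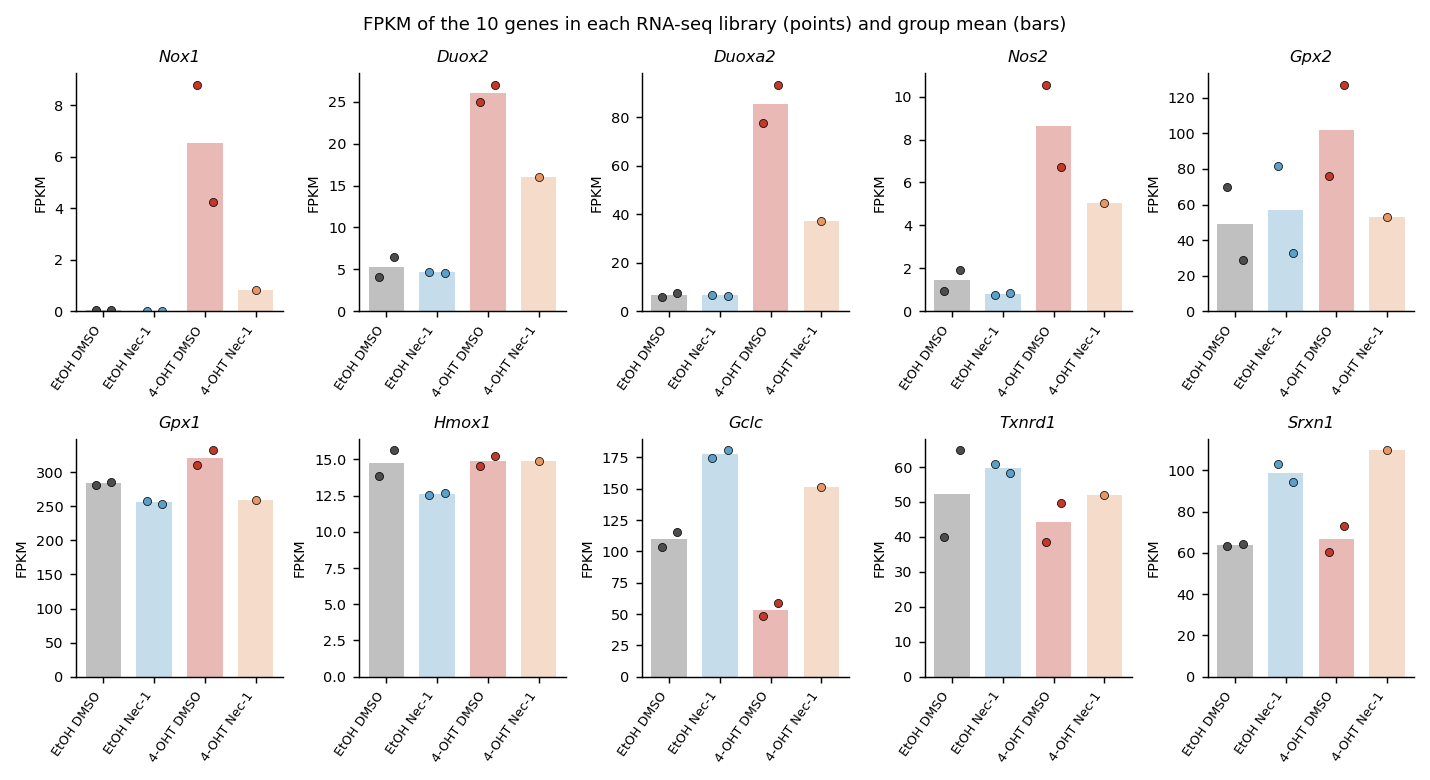
FPKM (linear axis from 0, own scale per panel) of the 10 genes; points are libraries and bars are group means, with 2 libraries in each group except 4-OHT Nec-1, which has 1. *Nox1*, *Duox2*, *Duoxa2* and *Nos2* were higher in both libraries labelled 4-OHT DMSO than in all 4 EtOH libraries, while *Gclc* was lower there than in any other library.

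The comparison of 4-OHT DMSO with EtOH DMSO asks what changed on *Mettl3* deletion. All 4 oxidant-producing genes rose and *Gclc* fell, whereas the other 5 antioxidant genes did not pass the test. Thus 4 of 10 were called higher, where 24.5% of all genes tested were, and 1 of 10 was called lower, where 16.7% were (41.2% in either direction). Of these 4, *Nox1* and *Nos2* passed the filter only with the libraries labelled 4-OHT. The list was chosen with earlier results of these data known, so the shares and medians here describe it and do not test it. The libraries of both groups did not overlap in 6 members that were higher (40.7% of all genes) and 1 that was lower (30.8% of all genes). The median difference of the 10 was 0.65, beside 0.08 over all genes tested. Median centring of the libraries shifts every difference in this comparison by -0.16, so values after centring are given where they matter, and with it the members' median was 0.49.

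*Duoxa2*, on chromosome 2, was measured at 5.83 and 7.49 FPKM in EtOH DMSO, 6.71 and 6.53 under EtOH Nec-1, 77.5 and 93.4 in the libraries labelled 4-OHT DMSO and 37.0 in the one labelled 4-OHT Nec-1. Both 4-OHT DMSO values stood more than 10 times above either EtOH DMSO value, and the ranges were far apart. The group means were 85.5 ± 11.2 and 6.66 ± 1.18 FPKM (SD, n = 2), a difference of 3.50 (SE 0.144, limma adjusted p = 0.000275).

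*Duox2*, its neighbour and partner, had 4.12 and 6.49 FPKM in EtOH DMSO, 4.72 and 4.63 under EtOH Nec-1, 25.0 and 27.0 in the libraries labelled 4-OHT DMSO and 16.0 in the one labelled 4-OHT Nec-1. Again every library labelled 4-OHT lay above every EtOH library. The rise was 2.12 (SE 0.185, limma adjusted p = 0.00119), smaller than that of *Duoxa2*.

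Because *Duox2* and *Duoxa2* lie beside each other and moved together, the RefSeq windows are shown, with that of *Nox1*, the other oxidase that rose. The gene spans of *Duox2* (chr2:122279246-122298740) and *Duoxa2* (chr2:122298900-122302885) are 159 bases apart in RefSeq, build GRCm38.p6, the assembly that mm10 denotes, and the windows lie on opposite strands. The windows of *Duox2* and *Nox1* lie inside the gene spans, at a start other than the outermost one, while that of *Duoxa2* is at the end of its span. Windows run from 250 bases before to 50 after a start, 5′ to 3′ on the strand of the gene, for *Duox2* chr2:122298178-122298477 (minus), *Duoxa2* chr2:122298650-122298949 (plus) and *Nox1* chrX:134111805-134112104 (minus). Capitals mark matches to the motifs searched on both strands.
Duox2: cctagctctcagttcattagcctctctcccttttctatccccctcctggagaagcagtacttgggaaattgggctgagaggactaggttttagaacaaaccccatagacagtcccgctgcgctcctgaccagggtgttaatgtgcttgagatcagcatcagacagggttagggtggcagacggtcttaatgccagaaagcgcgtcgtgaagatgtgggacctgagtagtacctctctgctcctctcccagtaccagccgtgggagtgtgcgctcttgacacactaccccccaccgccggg
Duoxa2: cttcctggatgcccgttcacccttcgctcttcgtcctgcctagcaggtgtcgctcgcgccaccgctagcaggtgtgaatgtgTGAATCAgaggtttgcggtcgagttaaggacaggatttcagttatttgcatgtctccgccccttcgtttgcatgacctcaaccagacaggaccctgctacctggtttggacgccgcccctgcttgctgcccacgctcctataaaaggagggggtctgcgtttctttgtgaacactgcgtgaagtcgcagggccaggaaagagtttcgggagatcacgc
Nox1: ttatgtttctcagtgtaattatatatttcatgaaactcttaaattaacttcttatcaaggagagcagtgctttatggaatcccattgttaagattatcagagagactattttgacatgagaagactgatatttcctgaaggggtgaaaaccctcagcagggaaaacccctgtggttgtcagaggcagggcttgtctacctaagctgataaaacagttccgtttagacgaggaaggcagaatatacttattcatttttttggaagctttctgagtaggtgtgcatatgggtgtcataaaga
The motifs were the AP-1 site TGANTCA (in 7.81% of all 32851 windows), the antioxidant response element core TGACNNNGC (12.4%), the NRF2-MAF site TGANTCAGC (1.19%, which contains an AP-1 site), the GAS element TTCNNNGAA of STAT factors (8.3%) and the core of the interferon-stimulated response element (3.44%). *Duoxa2* held 1 AP-1 match, which starts at -168 from the start site, and the other 2 windows held none of these letter strings. A match is a description of the sequence only.

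*Nox1*, on chromosome X, was close to 0 without 4-OHT. It was measured at 0.0389 and 0.0643 FPKM in EtOH DMSO, 0.0284 and 0.0160 under EtOH Nec-1, 8.79 and 4.25 in the libraries labelled 4-OHT DMSO and 0.812 in the one labelled 4-OHT Nec-1. The 4 EtOH libraries lay together near 0 and both 4-OHT DMSO libraries above 4. The difference was 2.77 (SE 0.295, limma adjusted p = 0.002). With a pseudocount of 0.1 FPKM in place of 1 it was 5.36, since the EtOH values lie far under 1 FPKM. In RefSeq the span of *Nox1* overlaps that of *Cstf2*, which had 2.77 to 6.13 FPKM over the 7 libraries; as no source used here states that strand was used in counting, reads in the shared stretch cannot be assigned with certainty.

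*Nos2*, on chromosome 11, had 0.936 and 1.95 FPKM in EtOH DMSO, 0.755 and 0.869 under EtOH Nec-1, 10.6 and 6.72 in the libraries labelled 4-OHT DMSO and 5.04 in the one labelled 4-OHT Nec-1. As with the oxidases, the 3 libraries labelled 4-OHT stood above the 4 EtOH libraries. It rose by 1.98 (SE 0.272, limma adjusted p = 0.00405). Genes of nitric oxide and arginine chemistry moved both ways: of 10 tested, *Nos2* included, 4 rose and 3 fell. Over all genes tested, 24.5% rose and 16.7% fell. *Arg2*, the mitochondrial arginase that competes for the same substrate, fell by 2.02 on the log2 scale (adjusted p = 0.00128, limma), from 77.5 and 68.1 to 14.4 and 20.4 FPKM. *Spr*, for sepiapterin reductase of tetrahydrobiopterin cofactor synthesis, rose by 0.94 and *Ass1*, for argininosuccinate synthase of arginine resynthesis, by 0.86. *Pts*, a further enzyme of cofactor synthesis, fell by 0.73, and *Ddah2*, an enzyme that degrades inhibitory methylarginines, fell by 0.62, while its paralog *Ddah1* rose by 0.84 (adjusted p = 0.0118, limma). The *Ddah2* call was lost without EtOH DMSO replicate 1 (limma adjusted p = 0.0587). The genes for the other NO synthases, *Nos1* and *Nos3*, did not reach the filter.

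The partners of NOX1 were measured in the same libraries. Of the list of 16 NADPH oxidase catalytic and partner genes, 7 were tested, of which 5 rose, 1 fell and 1 was not called. Over all genes tested, 24.5% rose and 16.7% fell. Without the members, 2 rose and 1 fell of 4 tested. Apart from the 3 members of the list described above, *Noxo1*, the organizer, rose by 1.31 (SE 0.0923, limma adjusted p = 0.00069), from 6.97 and 6.23 to 17.8 and 17.9 FPKM. *Cyba* rose by 1.20 (limma adjusted p = 0.00112), from 38.0 and 34.4 to 90.3 and 78.5 FPKM. *Noxa1*, the activator, fell by 0.54 (limma adjusted p = 0.0144), a call that was lost without EtOH DMSO replicate 2 (adjusted p = 0.0598) or without 4-OHT DMSO replicate 2 (adjusted p = 0.0505). *Rac1* was at 59.8 to 70.4 FPKM in every library and was not called. The phagocyte oxidase *Cybb* and *Nox3* and *Nox4* were at or near 0, and *Duox1* and *Duoxa1*, the paralogs of the induced pair, stayed under 1 FPKM in each library.

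Paneth cell markers moved in the same libraries as the oxidases. All 9 rose, and their summed FPKM was 8173 to 9064 in EtOH DMSO, 9467 to 9668 under EtOH Nec-1, 21845 to 22040 in 4-OHT DMSO and 16313 under 4-OHT Nec-1. Goblet cell markers rose in 7 of 8 cases, enterocyte markers rose in 1 and fell in 4 of 7, and stem cell markers fell in 4 of 7. Over all genes tested, 24.5% rose and 16.7% fell. After median centring all 9 Paneth cell and 5 goblet cell markers rose, and enterocyte and stem cell markers each fell in 5 cases. Of the myeloid list, *Cd14* and *Cd68* rose and summed FPKM went from 6.60 to 7.74 in EtOH DMSO to 25.6 to 26.8 in 4-OHT DMSO, while *Itgam* had 1.96 and 1.19 FPKM in EtOH DMSO and 0.315 and 0.917 in 4-OHT DMSO (difference -0.68, adjusted p = 0.0786 by limma, and 0.049 after median centring), and the defining markers *Ptprc*, *Adgre1* and *Tyrobp* stayed near 0. The part of these cell types in the changes of the 10 genes was not tested.

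**Figure D2:**
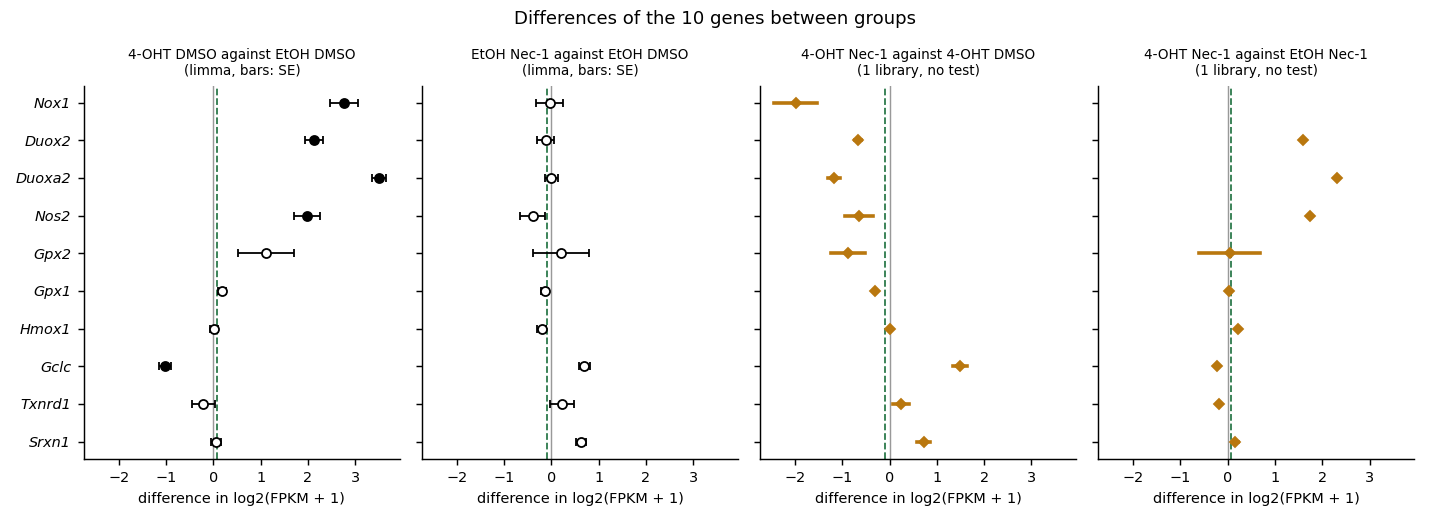
Differences in log2(FPKM + 1) of the 10 genes in 4 comparisons, where circles are limma estimates with SE, filled where the adjusted p was under 0.05, diamonds are the difference of the single 4-OHT Nec-1 library from the mean of the other group, with lines to its difference from each library, and dashed lines mark the median of all genes (*Nox1* did not pass the mean filter of the fourth panel). *Duoxa2* has the largest value among the 10 in the first panel (3.50) and *Gclc* the largest in the third (1.49).

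Among the antioxidant genes, *Gclc* was the one that passed the test. *Gclc*, on chromosome 9, had 104 and 116 FPKM in EtOH DMSO, 175 and 181 under EtOH Nec-1, 48.1 and 58.9 in the libraries labelled 4-OHT DMSO and 152 in the one labelled 4-OHT Nec-1. The 4 groups did not overlap, with 4-OHT DMSO lowest and both Nec-1 groups highest. In 4-OHT DMSO against EtOH DMSO it fell by 1.03 (SE 0.121, limma adjusted p = 0.00268), and by 1.18 with each library centred on its median.

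*Srxn1*, on chromosome 2, had 63.2 and 64.3 FPKM in EtOH DMSO, 103 and 94.4 under EtOH Nec-1, 60.5 and 72.9 in the libraries labelled 4-OHT DMSO and 110 in the one labelled 4-OHT Nec-1. Its 3 Nec-1 libraries lay above its 4 DMSO libraries, whereas the DMSO groups overlapped. The difference between these was 0.06 (SE 0.112, limma adjusted p = 0.714), and -0.10 after median centring.

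*Txnrd1*, on chromosome 10, had 39.9 and 64.9 FPKM in EtOH DMSO, 60.9 and 58.3 under EtOH Nec-1, 38.6 and 49.7 in the libraries labelled 4-OHT DMSO and 52.0 in the one labelled 4-OHT Nec-1. The replicates of EtOH DMSO lay far apart, and their range overlapped that of each other group. Its difference of -0.21 had an SE of 0.244 (limma adjusted p = 0.52), and turned to 0.13 without EtOH DMSO replicate 2. Its RefSeq span overlaps *Eid3* and *Gm38560*, which had 0.915 to 3.20 FPKM, so reads may be shared with them.

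*Srxn1* and *Txnrd1* are shown at their starts because they are the members whose windows hold antioxidant response or NRF2-MAF letters. The windows are chr2:152105274-152105573 (plus) for *Srxn1* and chr10:82858956-82859255 (plus), the second of 3 RefSeq windows, for *Txnrd1*, in the same build and with the same marks.
Srxn1: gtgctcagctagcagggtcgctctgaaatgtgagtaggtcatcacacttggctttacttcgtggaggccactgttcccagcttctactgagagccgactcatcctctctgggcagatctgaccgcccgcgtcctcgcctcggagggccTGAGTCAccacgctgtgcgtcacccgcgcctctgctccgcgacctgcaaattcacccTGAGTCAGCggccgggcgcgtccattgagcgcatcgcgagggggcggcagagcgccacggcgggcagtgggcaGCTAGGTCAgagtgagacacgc
Txnrd1: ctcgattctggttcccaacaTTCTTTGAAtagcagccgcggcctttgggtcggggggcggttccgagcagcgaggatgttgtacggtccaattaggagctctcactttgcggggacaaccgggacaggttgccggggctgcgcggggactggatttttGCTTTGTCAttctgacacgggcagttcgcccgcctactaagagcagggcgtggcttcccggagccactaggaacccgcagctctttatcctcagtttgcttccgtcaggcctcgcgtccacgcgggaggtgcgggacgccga
In *Srxn1* the capitals are, in order, an AP-1 site at -102, an NRF2-MAF site at -45 that contains a second AP-1 site, and an antioxidant response element core on the other strand at 28. In *Txnrd1* they are a GAS element at -230 and an antioxidant response element core on the other strand at -92. The windows of *Gpx1* and *Gpx2* held none of the 5 motifs, and 7 of the 10 members had a window in the table. *Nos2*, *Hmox1* and *Gclc* had no entry.

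The peroxidases differed in their spread. *Gpx1*, on chromosome 9, had 281 and 285 FPKM in EtOH DMSO, 258 and 254 under EtOH Nec-1, 310 and 333 in the libraries labelled 4-OHT DMSO and 259 in the one labelled 4-OHT Nec-1. DMSO and Nec-1 libraries did not overlap, but the differences were small. In 4-OHT DMSO against EtOH DMSO it was 0.18 (SE 0.079, limma adjusted p = 0.123), and 0.02 after median centring.

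*Gpx2*, the gut peroxidase on chromosome 12, had 69.7 and 28.9 FPKM in EtOH DMSO, 81.8 and 32.5 under EtOH Nec-1, 76.3 and 127 in the libraries labelled 4-OHT DMSO and 53.1 in the one labelled 4-OHT Nec-1. Replicates lay far apart in every group of 2, and the lower 4-OHT DMSO value was close to the higher value of EtOH DMSO. The difference of 1.11 between 4-OHT DMSO and EtOH DMSO had an SE of 0.59 (limma adjusted p = 0.184), and it was 1.74 without EtOH DMSO replicate 1 and 0.49 without EtOH DMSO replicate 2. A pseudogene, *Gpx2-ps1*, had 0.0830 to 0.576 FPKM, and reads may be split between it and *Gpx2*.

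*Hmox1*, on chromosome 8, varied least of the 10, with an SD of 0.118 over the 7 libraries on the log2(FPKM + 1) scale. It had 13.9 and 15.7 FPKM in EtOH DMSO, 12.5 and 12.7 under EtOH Nec-1, 14.5 and 15.2 in the libraries labelled 4-OHT DMSO and 14.9 in the one labelled 4-OHT Nec-1. The EtOH Nec-1 libraries were lowest, and the other groups overlapped. In 4-OHT DMSO against EtOH DMSO the difference was 0.01 (SE 0.0906, limma adjusted p = 0.926), and -0.14 after median centring.

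The 23 NRF2 target genes, 5 of which are members, were all tested. In 4-OHT DMSO against EtOH DMSO 2 rose, 12 fell and 9 were not called, where 24.5% of all genes tested rose and 16.7% fell. Their median was -0.39 (-0.55 after median centring) beside 0.08 over all genes. Without the 5 members the counts were 2 and 11 of 18. Over the 16 alternative settings, 4 to 12 of the 23 were called lower and 0 to 4 higher. With 1 library left out, 8 to 12 were called lower and 1 to 4 higher. *Ephx1*, for microsomal epoxide hydrolase, fell by 2.08 (SE 0.127, adjusted p = 0.000497, limma) from 188 in both libraries to 38.6 and 49.6 FPKM. *Nqo1*, for a quinone reductase, fell by 1.49 (adjusted p = 0.000544, limma) and *Gstm1*, for a glutathione transferase, by 1.13 (adjusted p = 0.00307, limma). *Pgd*, for an NADPH-producing enzyme of the pentose phosphate pathway, rose by 0.78, and *Slc7a11*, for the cystine transporter that feeds glutathione synthesis, rose by 0.49. The *Slc7a11* call of limma was lost without EtOH DMSO replicate 1 (adjusted p = 0.0665) or 4-OHT DMSO replicate 1 (adjusted p = 0.0671).

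Among the 9 regulators of the NRF2 pathway 4 rose and 0 fell, and with median centring 3 rose and *Bach1*, a repressor that competes with NRF2, fell (-0.36, limma adjusted p = 0.0192). Over all genes tested, 24.5% rose and 16.7% fell. The median of the 9 was 0.15, beside 0.08 over all genes, and it was -0.004 after median centring. *Maff* and *Mafk*, small MAF proteins that pair with NRF2 on DNA, rose by 1.05 and 0.94, and *Sqstm1*, which binds KEAP1, by 0.59. The *Maff* call was lost without 4-OHT DMSO replicate 1 (limma adjusted p = 0.0534). *Nfe2l2*, the gene for NRF2 itself, had 115 and 110 FPKM in EtOH DMSO against 137 and 150 for the libraries labelled 4-OHT DMSO (difference 0.34, adjusted p = 0.022 by limma, and 0.155 after median centring).

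Other peroxide and superoxide enzymes were measured as well. *Cat*, for catalase, fell by 1.55 (SE 0.0882, adjusted p = 0.000452, limma) from 87.7 and 93.3 to 28.8 and 32.0 FPKM, and *Sod1*, for the cytosolic superoxide dismutase, by 0.77. These were the 2 genes called of the 4 tested in that list, where 41.2% of all genes tested were called in either direction. *Gpx4*, which reduces lipid hydroperoxides, fell by 0.83 (adjusted p = 0.00428, limma), and the low *Gpx3* rose by 0.60, a call that was lost with the replicate number as a block (adjusted p = 0.0517), after median centring, and without EtOH DMSO replicate 2 or 4-OHT DMSO replicate 2 (adjusted p of 0.108 and 0.0898).

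In glutathione synthesis and recycling 3 of 13 genes rose and 4 fell, and 2 rose and 6 fell after median centring. Over all genes tested, 24.5% rose and 16.7% fell, which is the background for each list of this paragraph. *Chac2*, which degrades glutathione in the cytosol, rose by 0.95 and *Glrx5*, a mitochondrial glutaredoxin, by 0.45. *Ggt1*, which breaks down glutathione outside the cell, fell by 1.25 and the glutaredoxin *Glrx* by 0.86. The thioredoxin and peroxiredoxin list of 15 tested genes had 0 rises and 3 falls, in *Msra* (methionine sulfoxide reductase), *Txnrd2* (the mitochondrial thioredoxin reductase) and *Prdx1* (a cytosolic peroxiredoxin), by 1.11, 0.64 and 0.39. In heme breakdown and ferritin, *Hmox2*, for the constitutive heme oxygenase, rose by 0.59 and *Blvra*, for a biliverdin reductase, by 0.51, while *Blvrb* fell by 1.09 and the ferritin subunit genes *Fth1* and *Ftl1* by 0.56 and 0.54. Of 6 selenoprotein synthesis factors, which serve GPX1, GPX2 and TXNRD1, *Eefsec* and *Sephs2* rose by 0.79 and 0.36 and *Trnau1ap* and *Pstk* fell by 0.75 and 0.62. Several of these smaller changes were lost under other settings. The calls of *Glrx5*, *Blvra* and *Sephs2* were lost after median centring, without EtOH DMSO replicate 2 and without 4-OHT DMSO replicate 1. Without EtOH DMSO replicate 1 the calls of *Prdx1*, *Pstk*, *Fth1* and *Blvrb* were lost, as were those of *Pstk* without 4-OHT DMSO replicate 1 and of *Prdx1* and *Blvra* without 4-OHT DMSO replicate 2. Without either EtOH Nec-1 library, which enters through the spread, *Prdx1*, *Blvra* and *Sephs2* were lost, and without replicate 2 of that group also *Ftl1*. Over the 16 alternatives the limma adjusted p reached 0.118 for *Prdx1*, 0.125 for *Blvra*, 0.168 for *Sephs2* and 0.103 for *Pstk*.

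**Figure D3:**
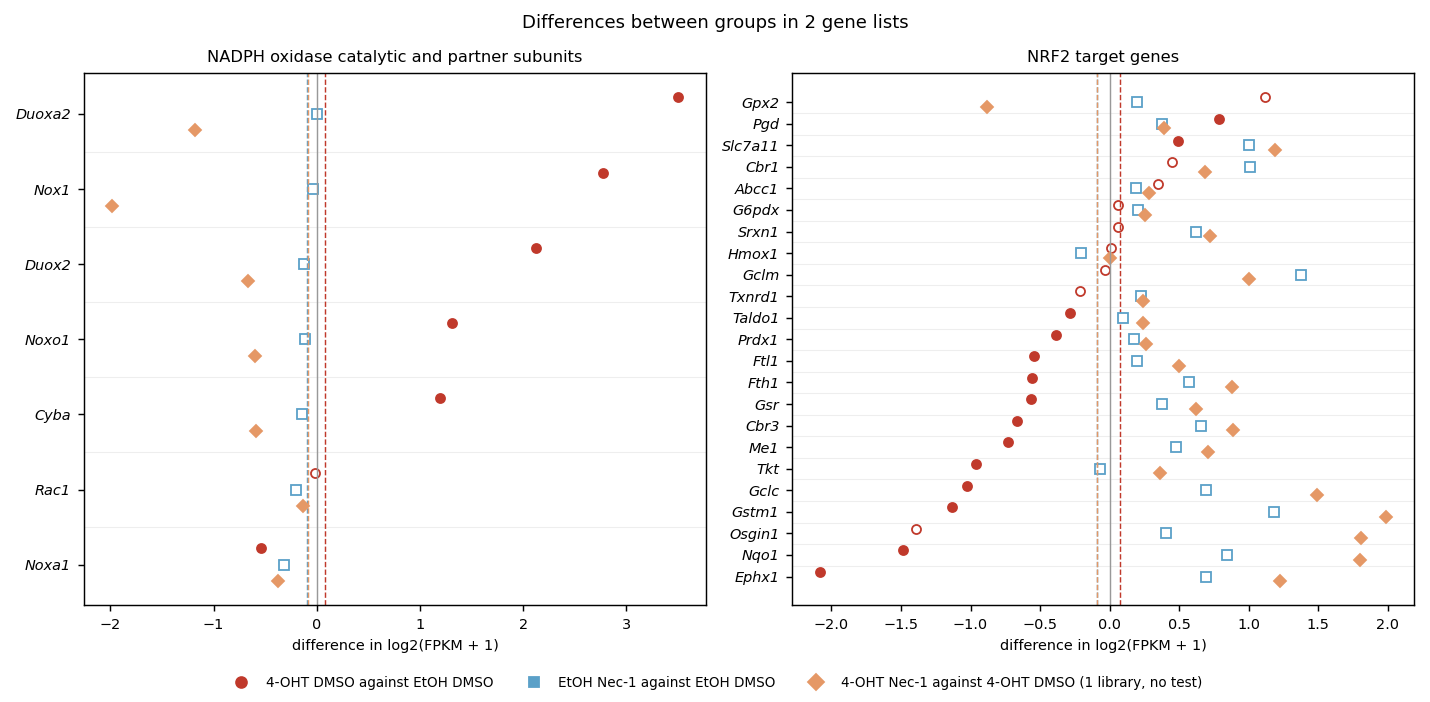
Differences in log2(FPKM + 1) for the tested genes of 2 lists, in which filled circles and squares had a limma adjusted p under 0.05, diamonds are differences of 1 library from the mean of 2 and have no test, and dashed lines mark the median of all genes in each comparison. The NRF2 targets fell in 12 of 23 cases between the DMSO groups, where 16.7% of all genes tested fell, and none was called for Nec-1 in EtOH organoids.

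The comparison of EtOH Nec-1 with EtOH DMSO asks what Nec-1 does without *Mettl3* deletion. It used the same EtOH DMSO libraries as the comparison above. By limma 0 of the 10 genes were called, where 0.22% of all genes were (0.173% higher and 0.0472% lower). At an unadjusted p under 0.05 there were 2, *Gclc* and *Srxn1*, both higher, where 13.3% of all genes reached that value and 2.92% did so as higher. The libraries did not overlap for these 2 as higher (10.5% of all genes) and for *Nox1*, *Nos2*, *Gpx1* and *Hmox1* as lower (39.1% of all genes). The median of the 10 was -0.02, beside -0.09 over all genes.

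*Gclc* differed by 0.69 (SE 0.121, adjusted p = 0.144, limma) and *Srxn1* by 0.62 (SE 0.112, adjusted p = 0.152, limma). Over the 16 alternative settings the adjusted p of *Gclc* ranged from 0.0561 to 0.674 and that of *Srxn1* from 0.0605 to 0.719. *Nox1* differed by -0.04 (0.06 after median centring), *Duox2* by -0.13, *Duoxa2* by 0.00 and *Nos2* by -0.40, with SEs of 0.144 to 0.295. The scale understates changes near or under 1 FPKM. Ratios of the group means of FPKM were 0.43 for *Nox1* and 0.563 for *Nos2*. Differences of the remaining members were -0.21 for *Hmox1*, -0.15 for *Gpx1*, 0.20 for *Gpx2* and 0.22 for *Txnrd1*.

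Among the NRF2 targets limma called 0 of 23, 13 were under 0.05 unadjusted, all of them higher, and in 18 both Nec-1 libraries lay above both DMSO libraries, where 10.5% of all genes did. Their median was 0.40. The number called as higher was 1 with median centring, 3 with upper quartile scaling, and 4 with only the 4 libraries of the comparison or without either library labelled 4-OHT DMSO. *Slc7a11* went from 2.69 and 3.20 to 6.88 in both libraries, a difference of 1.00 (adjusted p = 0.06, limma). Of the pathway lists, 1 gene passed the test, *Msra*, with 15.0 and 14.1 FPKM in EtOH DMSO and 5.62 and 5.69 in EtOH Nec-1 (difference -1.23, SE 0.0892, adjusted p = 0.0122, limma). That limma call was lost when any of these 4 libraries was left out (adjusted p 0.102 to 0.186) and with the replicate number as a block (adjusted p = 0.0643).

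The 4-OHT Nec-1 group asks whether RIPK1 inhibition changes these genes in 4-OHT organoids. With 1 library there is no replicate check, and the differences are given without a test. A limma contrast that takes the spread from the other groups was run as an alternative. Genes were counted if they differed from both 4-OHT DMSO libraries by 1 log2 unit or more. Of the 10, *Gclc* lay above by that much, where 0.764% of 12036 genes did, and *Nox1* and *Duoxa2* below, where 1.21% did. The filter required a mean of 1 FPKM, which *Nox1* reached only through the libraries labelled 4-OHT DMSO (8.79 and 4.25 FPKM). With no minimum difference, 3 members lay above both libraries (24.5% of all genes) and 6 below both (50.6% of all genes). The median of the members was -0.48, beside -0.09 over all genes. The 4-OHT DMSO libraries also enter the comparison with EtOH DMSO, so both sets of differences share them.

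*Nox1*, at 0.812 FPKM, differed from the libraries labelled 4-OHT DMSO by -2.43 and -1.53, with a mean of -1.98. *Duoxa2* differed by -1.31 and -1.05, *Nos2* by -0.94 and -0.36, and *Duox2* by -0.72 and -0.61. All 4 thus lay below both DMSO libraries and above all EtOH libraries. With median centring the count of members at least 1 log2 unit below was 1, and limma with the spread of the other groups gave an adjusted p of 0.0453 for *Duoxa2* and 0.0787 for *Nox1*, under the assumption that the lone library varies like them. The 7 tested NADPH oxidase genes, members included, all lay below both DMSO libraries, as did 50.6% of all genes. Mean differences were -0.60 for *Noxo1* and -0.59 for *Cyba*.

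*Gclc* lay above both libraries, by 1.35 and 1.64 (adjusted p = 0.0162 in the same limma alternative). *Srxn1* was above by 0.59 and 0.85, and *Txnrd1* by 0.06 and 0.42. *Gpx1* differed by -0.26 and -0.36 and *Gpx2* by -0.51 and -1.25, while the *Hmox1* value lay between those of the DMSO libraries. Of the 23 NRF2 targets 21 lay above both libraries (24.5% of all genes), with a median of 0.68, and 5 by at least 1 log2 unit (0.764% of all genes). By mean difference these were *Gstm1* (1.99), *Nqo1* (1.80), *Gclc* (1.49), *Ephx1* (1.22) and *Slc7a11* (1.19). Outside that list *Cat* met the same criterion, at 74.9 FPKM against 28.8 and 32.0 (mean difference 1.28). The limma alternative gave adjusted p-values of 0.00703 for *Nqo1*, 0.0103 for *Cat*, 0.0117 for *Gstm1*, 0.0212 for *Slc7a11*, 0.0284 for *Ephx1* and 0.0869 for *Srxn1*.

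Set against EtOH Nec-1, the library labelled 4-OHT Nec-1 shows what differed under the inhibitor. The mean filter of 1 FPKM left 9 members and removed *Nox1*, which had 0.812 FPKM against 0.0284 and 0.0160. *Duoxa2*, *Nos2* and *Duox2* lay above both EtOH Nec-1 libraries by at least 1 log2 unit, as did 4.24% of 11746 genes, with mean differences of 2.32, 1.74 and 1.58. Of these, *Nos2* passed the mean filter only through the library labelled 4-OHT Nec-1, in which it was high (5.04 FPKM against 0.755 and 0.869). None of the 9 lay that far below, where 1.94% of genes did. Without a minimum, 6 lay above both libraries (49.9% of genes) and 2 below both (38.8% of genes). *Gclc*, at 152 against 175 and 181 FPKM, differed by -0.23, *Srxn1* by 0.15 and *Txnrd1* by -0.19. In the pathway lists *Arg2* (-1.39), *Ggt1* (-1.19) and *Ephx1* (-1.55) lay below and *Chac2* (1.12) above by the same criterion.

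Whether the effect of Nec-1 differed between 4-OHT and EtOH organoids was tested with limma over all 7 libraries. *Nox1* passed the filter for it only through the libraries labelled 4-OHT DMSO. The contrast again assumed that the lone library varies like the others, and was chosen after seeing the data. It called 0 of the 10 members, where 0.0551% of all genes were called. At an unadjusted p under 0.05 there were 3 members, where 8.34% of all genes were. The limma estimates were -1.94 for *Nox1* (SE 0.466, adjusted p = 0.306), -1.18 for *Duoxa2* (SE 0.227, adjusted p = 0.217) and 0.80 for *Gclc* (SE 0.192, adjusted p = 0.308).

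Ratios within a library, in which a common scale factor cancels, set partners side by side as a description. *Duox2* relative to *Duoxa2* was 0.706 and 0.866 in EtOH DMSO, 0.703 and 0.709 under EtOH Nec-1, 0.322 and 0.289 in the libraries labelled 4-OHT DMSO and 0.432 in the one labelled 4-OHT Nec-1. The maturation factor was thus above its oxidase in every library, and by more in those labelled 4-OHT. *Nox1* relative to *Noxo1* was between 0.00276 and 0.0103 in the 4 EtOH libraries, 0.493 and 0.237 in 4-OHT DMSO and 0.0711 under 4-OHT Nec-1. *Gpx2* relative to *Gpx1* ranged from 0.101 to 0.383, and the ranges of all groups with 2 libraries overlapped.

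**Figure D4:**
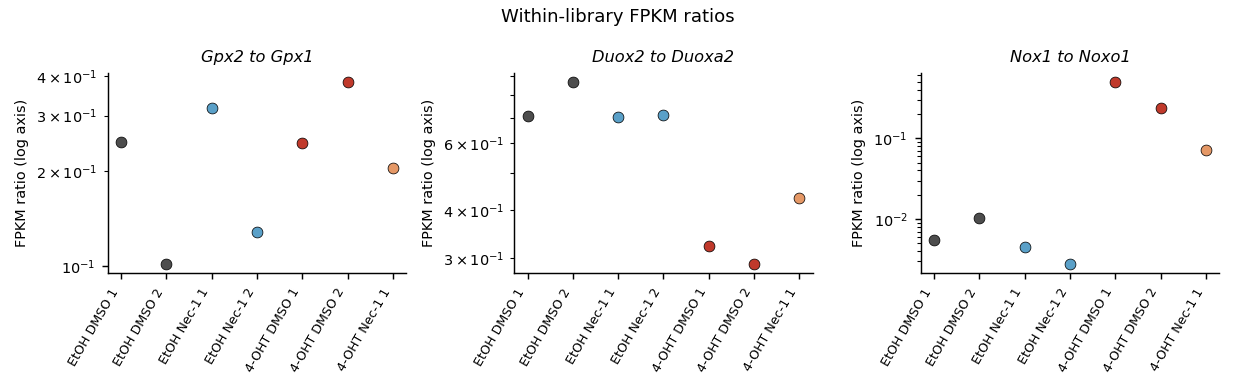
FPKM ratio (log axis) of 3 gene pairs in each of the 7 libraries, coloured by group. The *Duox2* to *Duoxa2* ratio lies between 0.703 and 0.866 in the EtOH libraries and at 0.432 or less in those labelled 4-OHT.

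Genes with a like profile were found for the oxidant-producing and the antioxidant gene with the largest SD over the 7 libraries on the log2(FPKM + 1) scale, *Duoxa2* (1.71) and *Gpx2* (0.746), by the root mean square (RMS) difference of mean-centred values. Nearest to *Duoxa2* was *Anxa10*, for an annexin, at an RMS of 0.183, with 4.77 and 6.18 FPKM in EtOH DMSO and 50.7 and 57.1 in the libraries labelled 4-OHT DMSO. It was followed by the mucin gene *Muc3* (0.282) and by *Irgm1*, *Ddx60* and *Trex1* (0.293 to 0.295). For *Gpx2* the nearest were *Gm14292* (0.324), *4833403J16Rik*, *Gm12115*, *CT033749.1* and *Pip5k1c* (up to 0.336), none as close. Among the members themselves the closest pairs were *Gpx1* and *Hmox1* (RMS 0.109), both nearly flat, and *Duox2* and *Nos2* (RMS 0.215).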

How the data were processed

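Bulk RNA-seq of 7 organoid libraries was analysed from the FPKM values per gene that the authors deposited, made with HISAT2 2.1.0 and StringTie 1.3.3b on mm10 per the submitters' processing notes. The strandedness of counting is not given in the sources used here, and FPKM carry no counts, so no count test was possible. Of 54838 gene identifiers 54723 had a symbol. Those that reached 1 FPKM in 2 or more libraries (12702) were tested on log2(FPKM + 1) with limma 3.58.1 (R 4.3.3, trended variance), 4 group means over all 7 libraries and 3 residual degrees of freedom. The comparisons with the single 4-OHT Nec-1 library kept genes whose mean reached 1 FPKM and had no test. The fit was tested on simulated data.

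The members and the gene lists were chosen with earlier results of these data known. Genes named besides the members and *Mettl3* were, per pathway list and limma comparison, up to 3 with the largest rise and 3 with the largest fall among those called, list genes at least 1 log2 unit from each library of the other group in the comparisons without a test, and the 5 nearest profiles. *Noxo1*, *Cyba*, *Rac1*, *Ddah1*, *Bach1*, *Nfe2l2*, *Slc7a11* under EtOH Nec-1, *Gss*, *Keap1*, *Sepsecs*, the cell type markers and the genes named as low or overlapping were named in addition, after their values were seen. Symbols were matched to the RefSeq promoter windows and gene spans of GRCm38.p6. Alternatives were other scalings, pseudocounts and filters, no variance trend, only the libraries compared, the replicate number as a block, and each library left out in turn. Python 3.11.15, numpy 2.4.6, pandas 2.3.3 and matplotlib 3.10.9 were used.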

Additional observations from a re-analysis of the deposited data

Results flagged for a closer look

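For 6 tested genes of the pathway lists both EtOH Nec-1 libraries lay to one side of both EtOH DMSO libraries, while the single library labelled 4-OHT Nec-1 lay to the other side of both libraries labelled 4-OHT DMSO. Over all genes, 10.5% lay above and 39.1% below in the EtOH comparison. In the 4-OHT comparison 24.5% lay above and 50.6% below. The share of all genes with opposite sides was not counted, so it is open whether 6 is more than usual. The effect of Nec-1 on *Msra*, for a methionine sulfoxide reductase, was higher in 4-OHT than in EtOH organoids by 1.58 on the log2(FPKM + 1) scale. Its level was 15.0 and 14.1 FPKM in EtOH DMSO, 5.62 and 5.69 under EtOH Nec-1, 5.95 and 6.54 in the libraries labelled 4-OHT DMSO and 8.25 in the one labelled 4-OHT Nec-1, and limma gave an adjusted p of 0.0638 for the difference of the effects, a contrast chosen after seeing the data. The effects also differed by 0.402 for *Nfe2l2*, 0.330 for *Sepsecs* and 0.263 for *Sephs2*, both of selenoprotein synthesis, and by -0.207 for *Gss*, for glutathione synthetase, and -0.283 for *Keap1*, which holds NRF2 in check. None of these 5 was past the threshold (limma adjusted p of 0.466 to 0.739).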

How the results depend on the processing

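The 5 calls among the 10 genes in 4-OHT DMSO against EtOH DMSO held with each library left out in turn. With 1 FPKM required in every library, 2 members were called higher, since *Nox1* and *Nos2* were then not tested. Of the 5 members not called, *Gpx1* and *Gpx2* were above 0 in each setting, *Gpx2* at 0.494 to 1.74 with 1 library left out, and the direction of the other 3 depended on the setting. *Hmox1* was -0.14 with median centring and with upper quartile scaling, and -0.0696 to 0.0942 with 1 library left out, *Srxn1* was -0.10 and -0.11, and -0.0756 to 0.19, and *Txnrd1* -0.56 to 0.13. In EtOH Nec-1 against EtOH DMSO, *Nox1* was 0.0582 with median centring, and with 1 library left out *Duox2* ranged from -0.40 to 0.15, *Duoxa2* from -0.16 to 0.16, *Gpx2* from -0.45 to 0.85 and *Txnrd1* from -0.12 to 0.57.

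Over all genes, 5237 were called in 4-OHT DMSO against EtOH DMSO, and 1319 when 1 log2 unit was also required. In EtOH Nec-1 against EtOH DMSO the 28 calls became 43 with upper quartile scaling, 8 with no filter, 79 with only the 4 libraries compared and 9 to 75 with 1 library left out. In 4-OHT Nec-1 against 4-OHT DMSO, 92 genes lay above by the threshold, 312 at 0.5 log2 units and 180 to 246 with 1 library left out. Below it lay 146, or 255 with a pseudocount of 0.1, 605 at 0.5 log2 units and 241 to 526 with 1 library left out. Members above were 1, or 2 at 0.5 log2 units, and members below were 2, or 1 with median centring and 1 by limma, 4 at 0.5 log2 units and 2 to 3 with 1 library left out. In 4-OHT Nec-1 against EtOH Nec-1, 498 genes lay above (753 with the smaller pseudocount, 1835 at 0.5 log2 units, 1771 by limma) and 228 below (379, 1035 and 910). In the comparisons of the single 4-OHT Nec-1 library a gene had to pass the threshold against each library of the other group. Leaving 1 of these out, or lowering the threshold, could therefore only keep or raise those counts. The cause of the other shifts was not tested.

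Deviations of same-numbered libraries correlated at -0.0402 to 0.00646 across genes, so no pairing by replicate number was seen over all genes. This cannot show whether same-numbered libraries shared a mouse or culture, since such an origin need not shift most genes. With the replicate number as a block, 4 members were called higher and 1 lower in 4-OHT DMSO against EtOH DMSO (4697 genes in all) and 0 in EtOH Nec-1 against EtOH DMSO (19 genes). The group with 1 library, the 2 libraries of the others and the missing read depth limit the precision.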
